A study of Homo sapiens with 2 samples.

Results

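The let-7 family guide strands are 9 human miRNAs chosen by name: hsa-let-7a-5p, hsa-let-7b-5p, hsa-let-7c-5p, hsa-let-7d-5p, hsa-let-7e-5p, hsa-let-7f-5p, hsa-let-7g-5p, hsa-let-7i-5p and hsa-miR-98-5p, written below without the species prefix. All 9 were among the 407 miRNAs in the count table, and all 9 reached 20 reads in a library. The libraries came from the established breast cancer line BT549 (human), in a form that overexpresses SNHG15-MS2, the long non-coding RNA SNHG15 carrying the RNA hairpins that the MS2 coat protein (MCP) binds. Both groups carried this construct and differed in the resin. For the pulldown, lysate was put on amylose resin coated with MBP-MCP, the coat protein fused to maltose binding protein, and for the control on plain amylose resin. Each group held 1 library, so no difference below has a replicate check and no test between the conditions was made. The comparison was made to find miRNAs that associate with SNHG15. RNA held by the MBP-MCP protein itself cannot be told apart here from RNA held through SNHG15, since both groups carried the tagged RNA.

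The pulldown held 202560 reads of miRNAs against 111414 for the control. Levels are given as reads per 1000000 reads of the library (RPM), and ratios as pulldown RPM over control RPM. Brackets after a ratio hold its 95% interval, an exact Clopper-Pearson interval of the read numbers that covers counting error only. These are shares of a library. How much RNA each resin held was not analysed here, and in lysate pooled from many cells, fewer cells holding a miRNA and less of it per cell cannot be told apart. Of 6 epithelial miRNAs that are low in mesenchymal-like breast cancer lines, only miR-200a-3p was in the table, at 1 read on either resin. The mesenchymal-like list, miR-221-3p, miR-222-3p, miR-100-5p, miR-125b-5p and miR-21-5p, took 10.4% of reads in the pulldown and 11.3% in the control. Most of these were miR-125b-5p, with 10378 and 6539 reads, and miR-21-5p, with 8475 and 4937. miR-222-3p had only 51 and 30. Of the miRNAs of other cell types, the red blood cell list had reads for 2 of 3, miR-486-5p with 133 in the pulldown and 62 in the control and miR-144-3p with 0 and 2. The leukocyte list had reads for 2 of 4, miR-142-3p with 13 and 11 and miR-223-3p with 1 and 1, and the liver miRNA miR-122-5p had 4 and 0. A value of 0 allows up to 3 reads, or 14.8 RPM in the pulldown and 26.9 in the control.

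The let-7 miRNAs are cut from hairpin precursors, and their 5p strand is the guide that Argonaute proteins hold and use to find target RNAs. Base pairing by the seed, bases 2 to 8 of the guide, is the main contact with a target, so members with a shared seed bind overlapping sets of mRNAs. The family accumulates as cells differentiate, is held down in stem cells by LIN28, and represses RAS genes, MYC and HMGA2, for which it is known as a tumour suppressor in breast and other cancers.

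The mature sequences show how little separates the members. They are printed from RefSeq (GRCh38.p14), 5′ to 3′, with the seed in capitals; all 9 names matched that table.
let-7a-5p: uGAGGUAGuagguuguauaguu
let-7b-5p: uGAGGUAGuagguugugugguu
let-7c-5p: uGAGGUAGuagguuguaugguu
let-7d-5p: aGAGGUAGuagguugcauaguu
let-7e-5p: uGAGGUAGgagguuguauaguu
let-7f-5p: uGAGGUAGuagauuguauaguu
let-7g-5p: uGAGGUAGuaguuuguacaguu
let-7i-5p: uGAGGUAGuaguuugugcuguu
miR-98-5p: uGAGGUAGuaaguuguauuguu

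All 9 share the seed GAGGUAG and are 22 bases long. The remaining miRNAs of that seed in the RefSeq table, miR-4458 and miR-4500, and the seed-related miR-202-3p were looked up and had no row among the 407 miRNAs. Against let-7a-5p, with its base first, positions counted from 1 at the 5′ end and the other member's base last, let-7c-5p differs by A19G, let-7f-5p by G12A and let-7e-5p by U9G. let-7b-5p differs by A17G and A19G, which leaves 1 base between let-7b-5p and let-7c-5p, at position 17. let-7g-5p differs from let-7a-5p by G12U and U18C, let-7d-5p by U1A and U16C, miR-98-5p by G11A and A19U, and let-7i-5p by G12U, A17G, U18C and A19U. let-7b-5p has the most G and C bases, 10 of 22, and let-7f-5p and miR-98-5p have the fewest, 7 of 22. No source used here says how the authors assigned reads that fit more than 1 member, so the values of single members are uncertain to that extent.

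The members come from 12 hairpins, whose GRCh38 positions were the same in RefSeq and GENCODE 29. MIRLET7A1 (chromosome 9, 94175957 to 94176036), MIRLET7F1 (94176347 to 94176433) and MIRLET7D (94178834 to 94178920) lie in a row on the plus strand, in introns of the lincRNA AL158152.2. MIRLET7A3 (chromosome 22, 46112749 to 46112822) and MIRLET7B (46113686 to 46113768) lie 863 bases apart on the plus strand, within exons of MIRLET7BHG. MIR98 (chromosome X, 53556223 to 53556341) and MIRLET7F2 (53557192 to 53557274) lie on the minus strand in introns of HUWE1, a ubiquitin ligase gene. MIRLET7A2 (chromosome 11, 122146522 to 122146593, minus strand) is in an intron of MIR100HG, MIRLET7C (chromosome 21, 16539828 to 16539911, plus strand) in an intron of MIR99AHG, and MIRLET7E (chromosome 19, 51692786 to 51692864, plus strand) in an intron of SPACA6. MIRLET7G (chromosome 3, 52268278 to 52268361, minus strand) is in an intron of WDR82, and MIRLET7I (chromosome 12, 62603686 to 62603769, plus strand) is in an intron of the lincRNA AC048341.1. let-7a-5p is made from 3 of these hairpins and let-7f-5p from 2, and their reads cannot be traced to a locus.

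The family took up nearly the same large part of both libraries. Its 9 members summed to 95298 reads in the pulldown, 47.0% of the library (exact interval 46.8 to 47.3%), and to 50436 reads in the control, 45.3% (45.0 to 45.6%). The ratio of the sums was 1.04 (1.03 to 1.05), a log2 ratio of 0.056. Of the 1.78 percentage points between the libraries, let-7b-5p alone made up 1.37, or 77.0%. Without let-7b-5p the other 8 members had a ratio of 1.01 (0.999 to 1.02).

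Abundance within the family fell into 2 tiers. let-7a-5p had 149062 RPM in the pulldown and 146938 in the control, and ranked 2 among all miRNAs of either library, after miR-16-5p. let-7i-5p, at 130643 and 130136 RPM, ranked 3 in both, and let-7f-5p, at 104542 and 103542 RPM, ranked 4 in both. let-7b-5p followed with 69762 RPM in the pulldown, where it ranked 5, and 56079 in the control, where it ranked 6. These 4 members held 96.5% of the family's reads in each library.

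The other 5 members were far scarcer. let-7e-5p had 8225 RPM in the pulldown and 7943 in the control, and let-7g-5p had 4690 and 4048. let-7d-5p, the member with a changed first base, had 1896 and 1939 RPM. let-7c-5p had 958 and 1185 RPM and miR-98-5p had 691 and 880, so the most abundant member had 216 times the reads of the least abundant in the pulldown and 167 times in the control. The order of the 9 members was the same in both libraries, and within each library no neighbours in that order had overlapping counting intervals except let-7c-5p and miR-98-5p in the control (991 to 1405 against 714 to 1072 RPM).

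**Figure D1:**
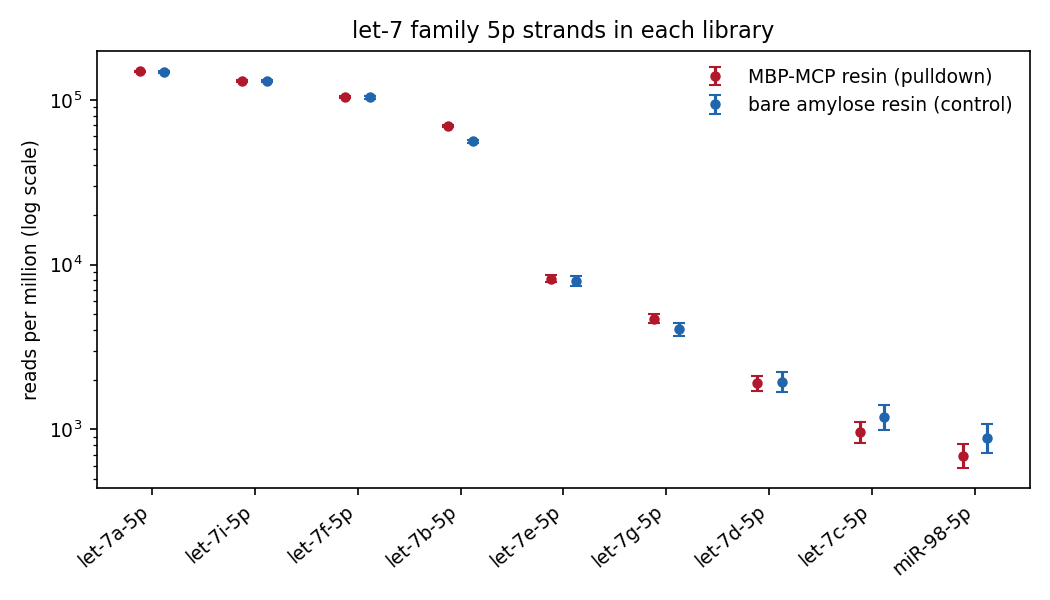
Level of each let-7 family 5p strand in RPM (log axis), for the 1 pulldown library on MBP-MCP resin and the 1 control library on bare amylose resin. Bars are exact 95% counting intervals; the levels run from 149062 down to 691 RPM in the pulldown in the same order as in the control, and only let-7b-5p and, less clearly, let-7g-5p stand visibly higher in the pulldown.

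The 3 most abundant members had close to equal shares in both libraries. let-7a-5p was read 30194 times in the pulldown and 16371 times in the control, which gives a ratio of 1.01 (0.995 to 1.03). For let-7i-5p the reads were 26463 and 14499 and the ratio 1.004 (0.984 to 1.02). For let-7f-5p they were 21176 and 11536 and the ratio 1.01 (0.987 to 1.03). At this depth the intervals leave room for an excess of at most 1.03-fold or a deficit to 0.984 in any of the 3 with total reads as the scale. Their reads relative to each other also hardly differed: let-7a-5p had 1.14 reads for each read of let-7i-5p in the pulldown and 1.13 in the control, and 1.43 and 1.42 for each read of let-7f-5p.

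let-7b-5p stood apart. It had 14131 reads in the pulldown and 6248 in the control, a ratio of 1.24 (1.21 to 1.28) and a log2 ratio of 0.31. let-7g-5p, read 950 and 451 times, had the next highest ratio, 1.16 (1.03 to 1.30), or 0.21 on the log2 scale. These were the 2 members whose interval lay above 1. The table has 161 miRNAs that reach 20 reads in either library, and 11.2% of them had an interval above 1. Of the 26 that reach 1000 reads, among them 5 members, 30.8% did, and 1 of those 5 members, let-7b-5p. Intervals narrow with depth, so these shares depend on the reads of the miRNAs counted.

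The last 4 members had intervals that included 1. let-7e-5p was read 1666 and 885 times (ratio 1.04, 0.954 to 1.12), and let-7d-5p 384 and 216 times (ratio 0.978, 0.826 to 1.16). let-7c-5p, read 194 and 132 times, was 1.24-fold lower in the pulldown (0.984 to 1.55). miR-98-5p, read 140 and 98 times, was 1.27-fold lower (0.973 to 1.66). With total reads as the scale, an excess as large as the 1.24 of let-7b-5p lies above the upper bounds of all 4, which are 1.12, 1.16, 1.02 and 1.03. On another scale these bounds and the ratio of let-7b-5p move together, so a fixed excess of 1.24 is not excluded on every scale. At this depth the intervals of let-7c-5p and miR-98-5p, as ratios, reach down to 0.645 and 0.603. No member had an interval below 1, against 23.6% of the 161 and 34.6% of the 26.

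By size, 0 of the 9 members reached 2-fold, against 5.59% of all 161, and 0 reached 1.5-fold, against 21.1%, on the scale of total reads. Of the 26 that reach 1000 reads, none reached 2-fold either. Only miR-92a-3p (ratio 1.61), miR-9-5p (1.62-fold lower) and miR-27a-3p (1.65-fold lower) among them reached 1.5-fold. These shares also depend on the reads of the miRNAs counted, so 0 of 9 cannot be called particular to the family. The median log2 ratio of the 9 was 0.01, with a range from −0.35 in miR-98-5p to 0.31 in let-7b-5p. The median of the 161 was −0.16, and that of the 21 outside the family that reach 1000 reads was −0.01, with a range from −0.72 in miR-27a-3p to 0.68 in miR-92a-3p. Ordered by ratio from the top, let-7b-5p took place 3 among the 26 deep miRNAs, and let-7e-5p, let-7a-5p, let-7f-5p and let-7i-5p took places 9, 11, 13 and 14, in the middle of that order. The odds of let-7b-5p against miR-16-5p, the most abundant miRNA and no member, were 1.12-fold higher in the pulldown (1.08 to 1.16), and those of let-7a-5p against it were 0.916 (0.892 to 0.940).

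**Figure D2:**
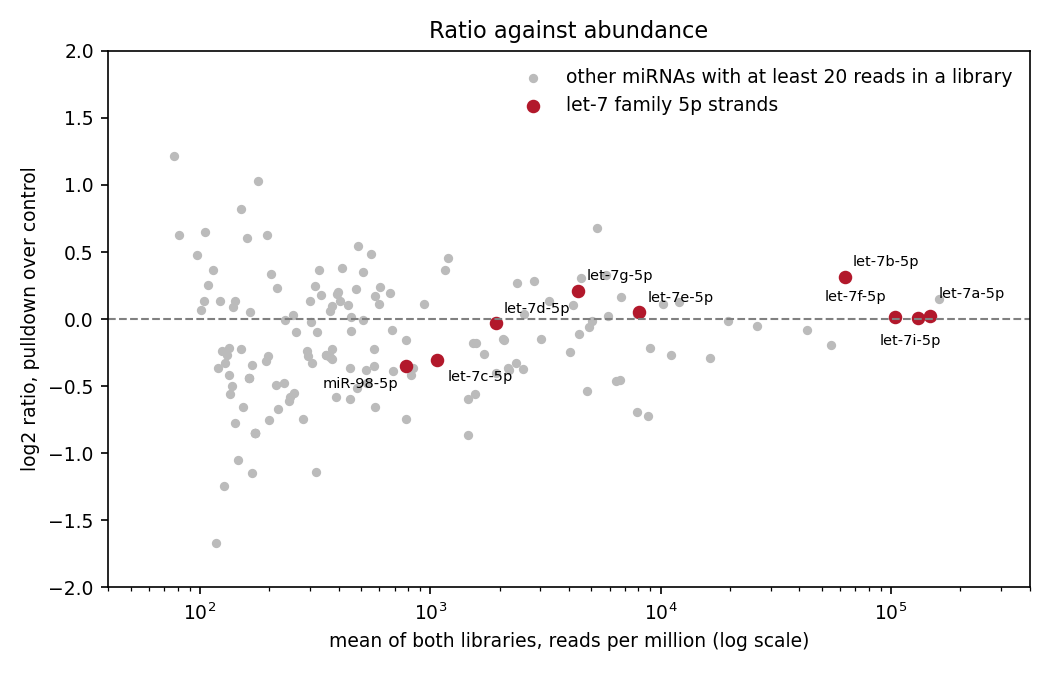
log2 ratio of pulldown to control against the mean level of both libraries in RPM (log axis) for 159 of the 161 miRNAs that reach 20 reads; 2 predicted miRNAs, with 0 control reads, lie outside the axis limits of −2 and 2. The let-7 family, in red, sits near 0 at the abundant end except let-7b-5p at 0.31. The less abundant let-7g-5p lies at 0.21, and the scarcest members, let-7c-5p and miR-98-5p, lie below 0 at −0.31 and −0.35.

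The authors' deposited table marks 26 miRNAs as different, 6.39% of the table, and 0 of the 9 members are among them. In the authors' deposited table let-7b-5p has a log2 fold change of 0.31 and an edgeR adjusted p of 0.259, and let-7g-5p has 0.21 and an adjusted p of 0.575. The adjusted p-values of the other 7 members in the authors' deposited table run from 0.848 to 1.0. With 1 library a group those values rest on an assumed spread between libraries, which the table does not state. The unadjusted p-values also do not follow the fold changes beside them. let-7i-5p, with a fold change of 0.0056, has a smaller p-value than let-7c-5p at −0.31 and miR-98-5p at −0.35. They may thus rest on another scale between libraries than the fold changes, and no source used here states which.

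The scale between libraries matters for the sign of small ratios, and a comparison of members with each other needs no such scale. let-7b-5p made up 14.8% of the family's reads in the pulldown (14.6 to 15.1%) and 12.4% in the control (12.1 to 12.7%), 2.44 percentage points more. Its odds against the other 8 members were 1.23-fold higher in the pulldown (exact interval 1.19 to 1.27). let-7a-5p went from 32.5% of the family in the control to 31.7% in the pulldown, let-7i-5p from 28.7% to 27.8%, and let-7f-5p from 22.9% to 22.2%.

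Because let-7b-5p is part of the reference for every other member, these odds were also taken without it, a choice made after the values were seen. The odds ratio of let-7a-5p then went from 0.965 (0.943 to 0.988) to 1.01 (0.983 to 1.03), that of let-7i-5p from 0.953 (0.930 to 0.976) to 0.991 (0.966 to 1.02), and that of let-7f-5p from 0.963 (0.939 to 0.989) to 0.999 (0.973 to 1.03). let-7g-5p had an odds ratio of 1.12 (0.996 to 1.252) against all 8 others and of 1.15 (1.02 to 1.29) without let-7b-5p. let-7c-5p had 0.777 (0.620 to 0.978) and, without let-7b-5p, 0.800 (0.637 to 1.01); miR-98-5p had 0.756 (0.579 to 0.989) and 0.777 (0.596 to 1.02). Without let-7b-5p, let-7g-5p was thus the 1 member of 8 whose interval excluded 1, with a lower bound, 1.02, close to 1. The 8 intervals were not adjusted for their number. The same count was not taken for other groups of miRNAs, so it cannot be called particular to let-7g-5p.

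**Figure D3:**
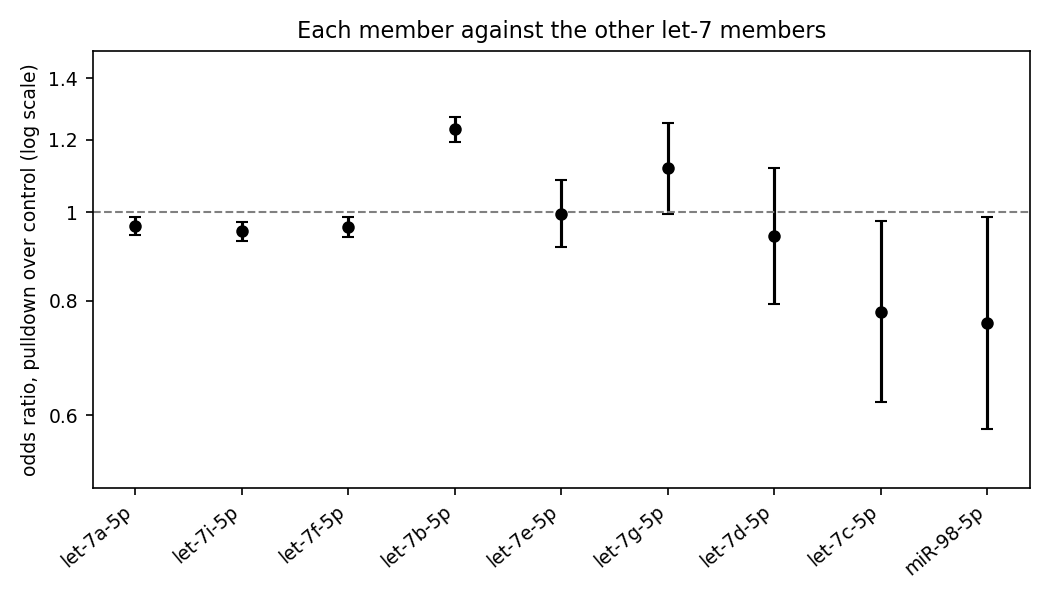
Odds of each member against the other 8 let-7 members, pulldown over control (log axis), with exact 95% counting intervals from 1 library a group; the dashed line marks equal odds. let-7b-5p lies at 1.23, let-7g-5p at 1.12 with an interval that reaches 0.996, and let-7a-5p, let-7i-5p and let-7f-5p lie at 0.953 to 0.965, with let-7b-5p among their reference.

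Of the 36 pairs of members, 13 had an interval of their odds ratio that excluded 1, with no adjustment for the number of pairs. The same count was not taken for pairs of other miRNAs, so 13 of 36 cannot be called particular to the family. Of the 13 pairs, 7 involved let-7b-5p, which stood higher relative to each of the other members except let-7g-5p (1.07, 0.954 to 1.21). The other 6 pairs set let-7g-5p against let-7a-5p, let-7f-5p, let-7i-5p, let-7c-5p or miR-98-5p, or let-7c-5p against let-7e-5p. For example, there were 2.14 reads of let-7a-5p for each read of let-7b-5p in the pulldown and 2.62 in the control. Between let-7b-5p and let-7c-5p, which differ at position 17, the quotient was 72.8 in the pulldown and 47.3 in the control (odds ratio 1.54, 1.22 to 1.93).

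The near-identical members were also summed. let-7a-5p, let-7b-5p, let-7c-5p, let-7e-5p and let-7f-5p are linked by steps of 1 base and together had 67361 and 35172 reads, a ratio of 1.05 (1.04 to 1.07). let-7b-5p with let-7c-5p had a ratio of 1.23 (1.20 to 1.27), let-7a-5p with let-7f-5p 1.01 (0.998 to 1.03), let-7a-5p with let-7e-5p 1.02 (0.997 to 1.03), and let-7a-5p with let-7c-5p 1.01 (0.994 to 1.03). With its nearest neighbour included, the ratio of let-7b-5p moved from 1.24 to 1.23. let-7c-5p had only 194 and 132 reads against 14131 and 6248 of let-7b-5p, so this sum could hardly move. It cannot show whether reads were assigned to the wrong member. By base composition, let-7b-5p, with 10 G and C bases, had a ratio of 1.24. Those with 9, let-7c-5p, let-7d-5p, let-7i-5p and let-7e-5p, had 0.808, 0.978, 1.004 and 1.04. With 8, let-7a-5p had 1.01 and let-7g-5p 1.16, and with 7, let-7f-5p had 1.01 and miR-98-5p 0.786. A link between base composition and ratio was not tested.

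A scaling shifts every member by the same amount, and 4 of the 5 others tried moved them up. With TMM factors the log2 ratios of all miRNAs rose by 0.20, with DESeq2 size factors by 0.28, with totals that leave out the 5 most abundant miRNAs, 4 of them members, by 0.12, and with totals that leave out the family itself by 0.048. Totals over known miRNAs only moved them by −0.0054. Under the 4 upward scalings let-7b-5p had log2 ratios of 0.51, 0.59, 0.44 and 0.36, and let-7i-5p, the member closest to 0 with total reads, 0.20, 0.28, 0.13 and 0.053. let-7d-5p changed sign, from −0.03 with total reads to 0.16 with TMM factors, 0.25 with DESeq2 size factors, 0.092 and 0.015. let-7c-5p and miR-98-5p stayed below 0 under these 4 scalings, at their highest −0.029 and −0.069 with DESeq2 size factors. The members with an interval above 1 numbered 2 on the scale of total reads, 6 after TMM scaling and 7 after that of DESeq2, while the share among the 161 rose from 11.2% to 22.4% and 27.3%. let-7b-5p reached 1.5-fold with DESeq2 size factors (ratio 1.51). Those factors, 1.22 and 0.816, rest on the median ratio over miRNAs read in both libraries, with no minimum number of reads. They are therefore coarse, as are the counts that depend on them.

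**Figure D4:**
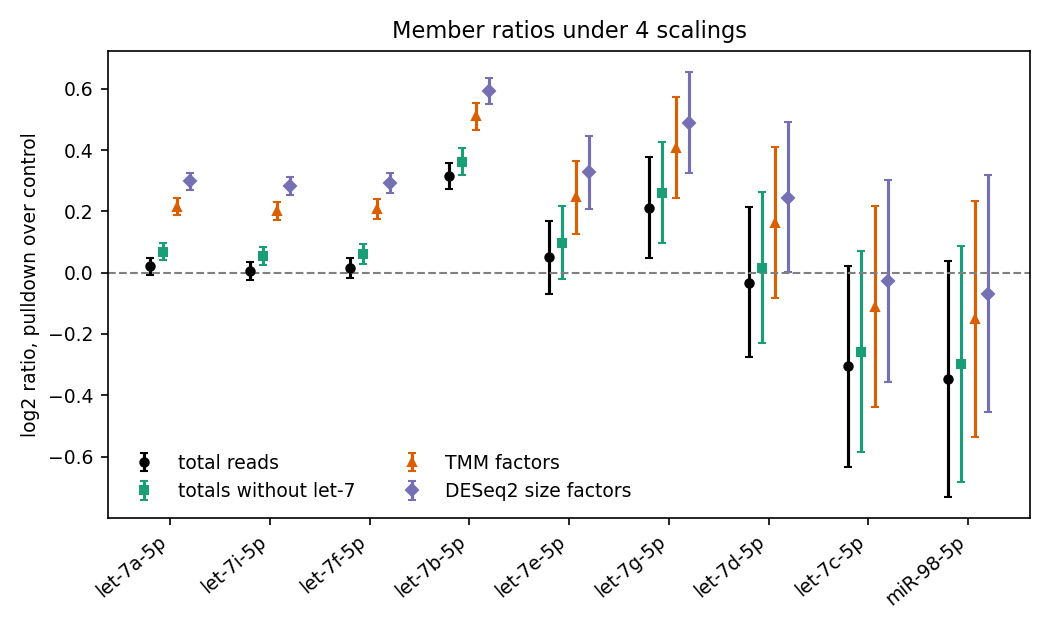
log2 ratio of pulldown to control for each member under 4 ways of scaling the libraries, with 95% counting intervals; the dashed line marks 0. The order of the members does not depend on the scaling, while the zero line does: let-7i-5p runs from 0.0056 with total reads to 0.28 with DESeq2 size factors, and let-7b-5p from 0.31 to 0.59.

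The 3p strands, the passenger side of the same hairpins, were rare. Of 11 such strands 8 had a row, with 87 reads in all in the pulldown and 66 in the control, 0.0430% and 0.0592% of the libraries (ratio 0.725, 0.520 to 1.01). let-7d was the exception among the hairpins: let-7d-3p had 39 reads against 384 of its guide in the pulldown and 30 against 216 in the control, so the 3p strand was 9.22% (exact interval 6.64 to 12.4%) and 12.2% (8.38 to 16.9%) of the hairpin's reads. For let-7a, let-7b, let-7i, let-7e, let-7f and let-7g the 3p share was at most 0.180% in the pulldown and 0.442% in the control. let-7i-3p, with 15 and 18 reads, was 2.18-fold lower in the pulldown (1.04 to 4.65) while its guide had a ratio of 1.004. The lower bound of that fold dropped under 1 with TMM factors (1.91-fold, 0.907 to 4.06), DESeq2 size factors (1.80-fold, 0.857 to 3.84) and totals without the 5 most abundant miRNAs (2.002-fold, 0.953 to 4.27). let-7b-3p, with 12 and 4 reads, stood at 1.65, and its interval, 0.5001 to 7.02, holds both 1 and the 1.24 of its guide. The remaining 3p strands had 12 reads or fewer in each library, too few to show a difference: let-7a-3p had 12 and 9, let-7a-2-3p 4 and 0, let-7e-3p 3 and 0, let-7f-2-3p 1 and 3, and let-7g-3p 1 and 2.

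Some members share a primary transcript with miRNAs of the miR-99/100 and miR-125 families. MIRLET7E lies between MIR99B, 104 bases away, and MIR125A, 389 bases away. The 3 guides of that cluster had like ratios: 1.04 for let-7e-5p, 1.03 for miR-99b-5p (1622 and 868 reads, 0.946 to 1.12) and 1.09 for miR-125a-5p (2550 and 1282 reads, 1.02 to 1.17). The odds ratio of let-7e-5p was 1.01 (0.896 to 1.13) against miR-99b-5p and 0.946 (0.850 to 1.05) against miR-125a-5p, both intervals including 1. MIRLET7C lies 658 bases from MIR99A. miR-99a-5p had 26 and 11 reads (ratio 1.30, 0.621 to 2.92), and the odds ratio of let-7c-5p against it, 0.623, had an interval of 0.268 to 1.36. miR-125b-5p, made from the clusters of both let-7c and let-7a-2, was read 10378 and 6539 times, 1.15-fold lower in the pulldown (1.11 to 1.18), though its log2 ratio, −0.20, was 0.081 after DESeq2 scaling; miR-100-5p, from the let-7a-2 cluster, had 1202 and 652 reads (ratio 1.01, 0.921 to 1.12).

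Among known miRNAs outside the family that reach 1000 reads, the 3 whose log2 ratio was nearest to the 0.056 of the summed family, over the 2 libraries, were miR-99b-5p (0.040), miR-100-5p (0.020) and miR-103a-3p (0.11).

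The let-7 seed was also searched in SNHG15 itself. The 7-base match CTACCTC, the complement of the seed, and its shorter form TACCTC, the complement of bases 2 to 7, were looked for on the sense strand of the 10 SNHG15 transcripts in GENCODE 29, 505 to 3116 bases long. Neither was found in any of the 10. Among all GENCODE transcripts within 10% of the same length, CTACCTC occurs in 3.70% at the shortest length and 20.9% at the longest, and TACCTC in 9.20% to 45.4%. No source used here names the isoform in the tagged construct, and the missing match says only that these letters are not in these transcripts.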

How the data were processed

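Small RNA from 1 pulldown and 1 control library, grouped by resin, was sequenced from libraries of a QIAseq kit, per the labels' protocols. The authors deposited raw read counts per miRNA. The build, GRCh38, is given per the submitters' processing notes. The aligner, annotation release and handling of molecular identifiers were not given in the sources used here. RPM values (headed Tpm), also deposited, are proportional to the counts. They sum to 999655 and 999650, a little under 1000000. The deposited log2 fold change is the log2 ratio of those values, and the deposited p-values and adjusted p-values come from edgeR, per the table's name. Of 407 miRNAs 50 are numbered predictions (1.56% of pulldown and 1.93% of control reads) and stayed in the totals. There were 0 columns of other samples.

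Ratios were computed from the counts and library totals, with a prior count of 0.5, in proportion to library size, for log2 ratios. Intervals are exact conditional binomial intervals of ratios (95%) and exact conditional intervals of odds ratios, computed in Python 3.11.15 with SciPy 1.17.1 and tested on simulated data. The simulated counts held counting error only, which these intervals assume, so they check the computation and not the spread between libraries. With 1 library per group, called means an interval that excludes 1, or a change of at least 2-fold with 20 reads in a library. Alternatives were TMM (edgeR 4.0.16; factors 0.935 and 1.07), DESeq2 1.42.0 size factors (1.22 and 0.816), other totals, a 1.5-fold threshold, a prior count of 5, summed neighbours and smaller families. Named were all members, their 3p strands, seed relatives, cluster partners and the 3 miRNAs with 1000 reads nearest in ratio; other miRNAs were named after their values were seen. Members, lists and thresholds were chosen with earlier results of these data known.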

Additional observations from a re-analysis of the deposited data

How the results depend on the processing

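The log2 ratio of the summed family, 0.056 with total reads, was 0.25 with TMM factors, 0.33 with DESeq2 size factors, 0.18 with totals without the 5 most abundant miRNAs and 0.10 with totals without the family. It was 0.072 without let-7a-5p, 0.075 without let-7i-5p and 0.015 without let-7b-5p, where its interval reached −0.0019. The number of members with an interval above 1 was 2 with total reads and with totals over known miRNAs, 6 with TMM factors, 7 with DESeq2 size factors, 6 without the 5 most abundant miRNAs and 5 without the family. Each alternative shifts every ratio by one factor, and the share among all 161 miRNAs with 20 reads, 11.2% with total reads and with known miRNAs, became 22.4%, 27.3%, 17.4% and 13.0%. No member had an interval below 1 or a 2-fold change under any of the 5 other scalings. These scalings moved ratios up or hardly at all, so the lack of intervals below 1 tests nothing. The shares of the 161 below 1 or at 2-fold were not taken under them. None of the members reached 1.5-fold except let-7b-5p with DESeq2 size factors (ratio 1.51). That check of 1.5-fold across scalings was added after seeing the data, as were those of let-7i-3p and of the shares among all miRNAs. The odds of let-7b-5p within the family were 1.23 in the full family and in each of the 4 smaller families tried. These left out let-7a-5p, let-7f-5p or let-7i-5p, or the scarcest members. The ratios of let-7a-5p, let-7f-5p and let-7i-5p, 1.01, 1.01 and 1.004, were close to the 1.01 of the family without let-7b-5p. The scarcest members held few of the family's reads. Leaving out such members could hardly move the odds, so the same 1.23 is no check of them. The odds ratio of let-7a-5p, 0.965, turned to 1.01 (0.983 to 1.03) without let-7b-5p in its reference. Of 67 settings tried for single members' log2 ratios, 40 stayed within the counting interval and 27 left it. Reversal was counted only for members whose interval excluded 1, let-7b-5p and let-7g-5p, and 0 were found. The scalings moved log2 ratios up or by −0.0054, so they could not reverse either member and this 0 tests nothing. let-7d-5p, whose interval included 1, did change sign with TMM factors. No paired analysis was possible because each group held 1 library. Leaving out a library was not possible for the same reason. Depth limits the scarce members most: the ratio of miR-98-5p, 0.786, has an interval of 0.603 to 1.03, that of let-7a-5p 0.995 to 1.03.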
